A study of Mus musculus with 6 samples.

Results

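The small leucine-rich proteoglycans described here are 9 secreted matrix proteins, *Dcn*, *Bgn*, *Aspn*, *Fmod*, *Lum*, *Prelp*, *Omd*, *Ogn* and *Podn*. They were taken by gene symbol from a transcript abundance matrix of 24421 genes, in which each of the 9 had 1 row, by a rule that uses names alone, although earlier results of these data were known when it was made. Small leucine-rich proteoglycans have a core protein built of leucine-rich repeats, to which chains of chondroitin, dermatan or keratan sulfate are attached in many of them. They bind fibrillar collagens, set the width and spacing of the fibrils, and hold growth factors such as TGF-β in the matrix. In the aortic wall they belong to the matrix made by smooth muscle cells and by the fibroblasts of the outer layer, and loss of biglycan in people causes an aneurysm syndrome.

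The libraries came from sorted cells of the mouse aortic root and ascending aorta and compared cells of 2 embryonic origins, the secondary heart field (SHF) and the cardiac neural crest (CNC). All mice were on the 129S6/SvEv strain, were 8 weeks old, and carried a conditional CAG-Sun1/sfGFP tracer allele, which labels the nuclear envelope once Cre has acted. The 3 SHF libraries came from mice that also carried Mef2cSHF, and the 3 CNC libraries from mice with Wnt1-Cre2. Live GFP-positive cells were sorted after enzymatic digestion and sequenced in bulk by SmartSeq2, an amplified full-length method without molecular identifiers. Each Cre marks every descendant of its lineage rather than 1 cell type, and the sources used here do not say whether animals were pooled. Levels are TPM, the relative abundance of each gene's transcripts, which are scaled to gene length and to a fixed library total, so the depth of the libraries is unknown and fewer cells of a type cannot be told apart from less RNA per cell. Between 9255 and 11858 genes were above 0 in a library, and 6378 were above 0 in all 6.

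All 9 proteoglycans were above 0 in all 6 libraries and spanned a wide range of abundance (see the plot of members by library). Their summed level was 24083 TPM, 27878 TPM and 25630 TPM in SHF replicates 1, 2 and 3. It was 30586 TPM, 28416 TPM and 32885 TPM in the CNC replicates. Every CNC sum was above every SHF sum, although the gap between the highest SHF and the lowest CNC library was narrow, and no test was made of a sum over the members. Without *Dcn* the sums overlapped, at 12479 TPM to 15122 TPM in SHF and 13553 TPM to 19477 TPM in CNC cells. Without *Dcn* and *Bgn* they did not, at 4007 TPM to 4200 TPM in SHF and 4712 TPM to 6951 TPM in CNC cells. The 9 genes together held 2.41% to 2.79% of the library total in SHF cells and 2.84% to 3.29% in CNC cells.

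**Figure D1:**
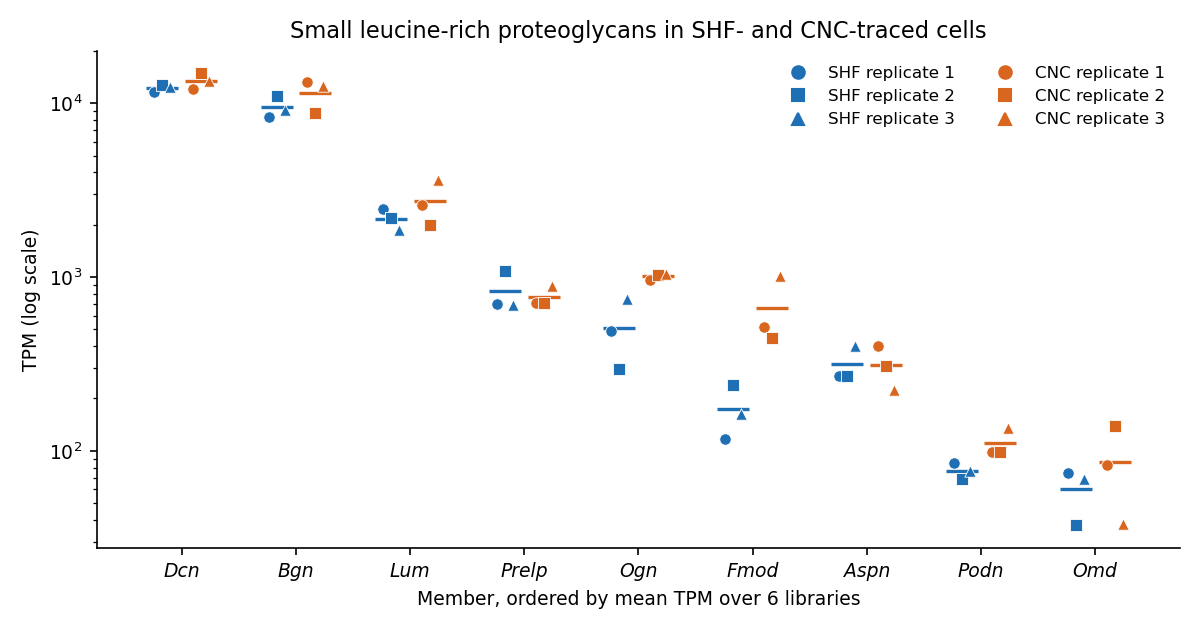
TPM on a log scale for the 9 proteoglycans, ordered by their mean over 6 libraries, with SHF libraries in blue, CNC libraries in orange, a marker shape for each replicate and a line at each lineage mean (n = 3). *Ogn*, *Fmod* and *Podn* are the members whose 3 CNC points all sit above the 3 SHF points.

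*Dcn* and *Bgn* made up most of this sum, between 78.9% and 85.0% of it in each library. *Dcn* had the 4th and *Bgn* the 8th highest mean TPM of all genes in the matrix, and *Lum* the 45th. Down the order of mean levels, *Bgn* was above *Lum*, *Lum* above *Prelp* and *Aspn* above *Podn* in 6 of 6 libraries each, with ranges that did not overlap. *Dcn* exceeded *Bgn* in 5 of 6 libraries, and their ranges overlapped. The order of *Fmod* and *Aspn* turned between the lineages, with *Aspn* the higher in all 3 SHF libraries and *Fmod* in all 3 CNC libraries. *Ogn* was above *Prelp* in all 3 CNC libraries, and *Prelp* above *Ogn* in 2 of 3 SHF libraries. *Ogn* was above *Fmod* in 6 of 6 libraries and *Podn* above *Omd* in 5 of 6, but their ranges overlapped too. *Omd* was thus the lowest on average, and the mean of *Dcn* was 1.23-fold that of *Bgn* and the mean of *Bgn* 4.28-fold that of *Lum*.

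**Figure D2:**
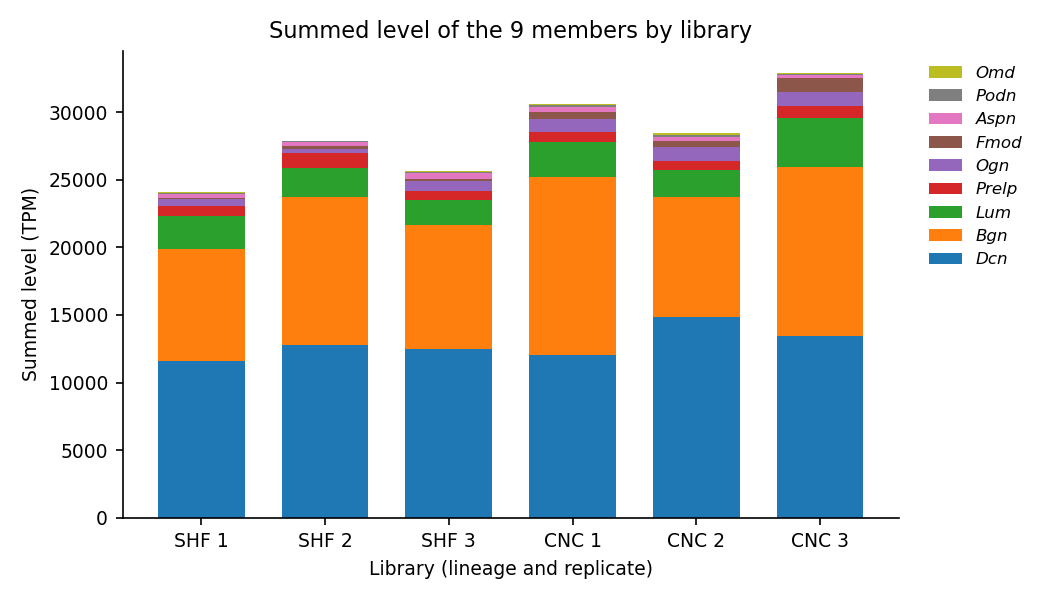
Summed level of the 9 proteoglycans (TPM) for each library, with each stacked segment the TPM of 1 gene. *Dcn* and *Bgn* fill 78.9% to 85.0% of every bar, and the 3 CNC bars are the taller ones.

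The libraries were made to find transcripts that set the lineages apart. The comparison of CNC with SHF cells was made with limma, on log2(TPM + 1), and covered 10185 genes with 1 TPM or more in 3 or more of the 6 libraries, all 9 proteoglycans among them. None of the 9 passed a Benjamini-Hochberg adjusted p of 0.05 in limma, and neither did any other gene, so the background was 0%. The smallest adjusted p of all genes in limma was 0.433. At an unadjusted p under 0.05, 2 of the 9 members passed, *Fmod* and *Ogn*, against 5.86% of all genes tested. Without a trend in the limma fit, *Fmod* alone passed (unadjusted p = 0.0205) and *Ogn* did not (unadjusted p = 0.1098). In 3 of the 9, *Fmod*, *Ogn* and *Podn*, every CNC library was above every SHF library, against 5.68% of all genes. In 0 of the 9 was every SHF library above every CNC library, which held for 6.11% of all genes, so that 3 of 9 members did not overlap in either direction beside 11.8% of all genes. The estimated difference was higher in CNC cells for 7 of 9 members, with a median log2 difference of 0.30 (CNC minus SHF), whereas 48.8% of all genes tested were higher in CNC and their median was -0.02. The count of 7 depends on the scaling of the libraries. *Aspn* and *Prelp* turned to above 0 with median-of-ratios scaling, and *Dcn* and *Bgn* to below 0 with quantile scaling.

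**Figure D3:**
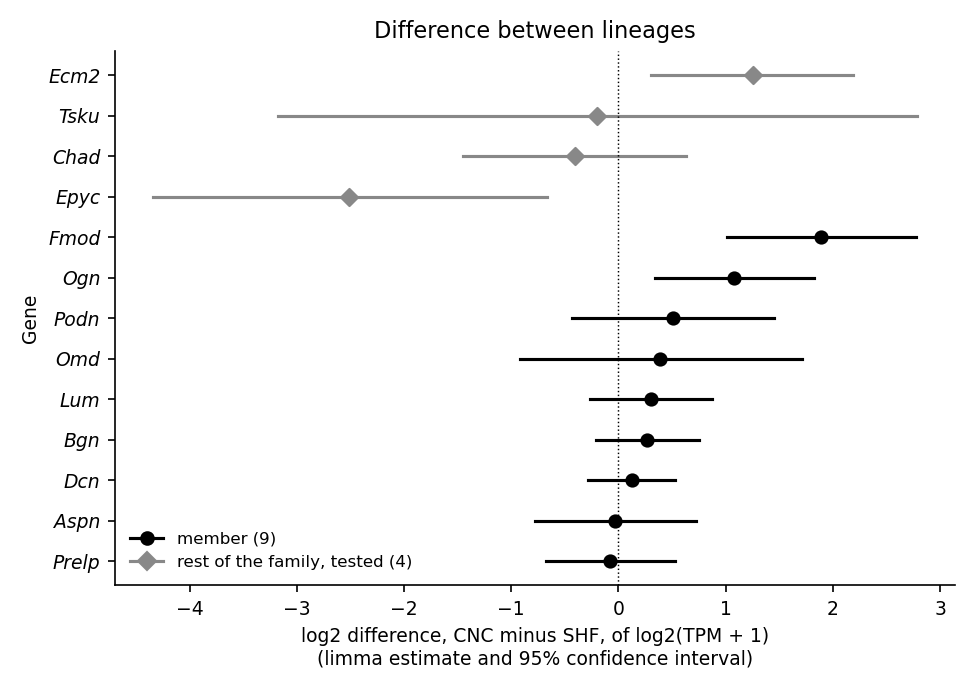
Difference between the lineages in log2(TPM + 1), CNC minus SHF, with limma estimates as points and 95% confidence intervals as bars (3 against 3 libraries), for the 9 members in black and the 4 other family genes tested in grey. The intervals of *Fmod* and *Ogn* lie above 0, while those of the other 7 members cross it.

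Decorin and biglycan are the class I members that carry chondroitin or dermatan sulfate chains, and both bind collagen and TGF-β. *Dcn* read 11604 TPM, 12756 TPM and 12482 TPM in SHF cells and 12054 TPM, 14863 TPM and 13408 TPM in CNC cells. The lineages overlapped, and *Dcn* was the member whose highest and lowest library differed least as a ratio, at 12281 ± 602 TPM in SHF and 13442 ± 1405 TPM in CNC cells (SD, n = 3). Its difference was 0.13 on the log2 scale, with a 95% confidence interval of -0.28 to 0.53 and an adjusted p of 0.927 (limma, Benjamini-Hochberg). The median width of this interval over all genes tested was 5.0, so the interval for *Dcn* was narrow beside that of most genes in this fit. That depends on the trend in the limma fit. Without a trend, the unadjusted limma p of the same difference was 0.811, against 0.507 with it.

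*Bgn* lies on the X chromosome and read 8280 TPM, 10948 TPM and 9141 TPM in SHF cells. In CNC cells it read 13166 TPM, 8841 TPM and 12526 TPM, so that CNC replicate 2 fell among the SHF values while the other two stood above them. The means were 9456 ± 1362 and 11511 ± 2334 TPM (SD, n = 3). The log2 difference was 0.27, with an interval of -0.21 to 0.75 and an adjusted p of 0.891 in limma. The ratio of *Dcn* to *Bgn* within a library, which does not depend on the library total, was 1.40, 1.17 and 1.37 in SHF and 0.916, 1.68 and 1.07 in CNC cells. The ratio overlapped between lineages, and an exact two-sided permutation test gave p = 0.6 (adjusted p = 0.7 over 4 ratios tested).

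Asporin, encoded by *Aspn*, is a class I member with a stretch of aspartate residues and binds collagen without the usual chains. It read 269 TPM, 270.4 TPM and 402 TPM in SHF and 401 TPM, 306 TPM and 224 TPM in CNC cells. The lineages covered nearly the same range, with a log2 difference of -0.03 and an interval of -0.78 to 0.72. *Aspn* thus had the smallest estimated difference of the 9, although its interval reaches well to both sides of 0.

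Fibromodulin, encoded by *Fmod*, is a class II member that carries keratan sulfate, binds type I collagen and takes part in the cross-linking and growth of fibrils. It read 118 TPM, 240.3 TPM and 162 TPM in SHF cells and 514 TPM, 448 TPM and 1016 TPM in CNC cells. The lineages did not overlap, and the lowest CNC library was well above the highest SHF library. The highest value, in CNC replicate 3, was 8.64 times the lowest, in SHF replicate 1. Mean levels were 173 ± 62.1 TPM in SHF and 659.5 ± 310.3 TPM in CNC cells (SD, n = 3), a 3.80-fold higher mean. *Fmod* had the largest estimate among the 9, a log2 difference of 1.89 ± 0.40 (SE) with an interval of 1.01 to 2.77. Its unadjusted p was 0.000633 and its adjusted p 0.475 (limma, Benjamini-Hochberg), so it did not pass. The exact two-sided permutation test gave p = 0.1, the smallest that 3 against 3 libraries allow.

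Lumican, the class II member closest to fibromodulin in sequence, is best known for keeping collagen fibrils evenly spaced in the cornea. *Lum* read 2462 TPM, 2172 TPM and 1866 TPM in SHF and 2593 TPM, 1983 TPM and 3616 TPM in CNC cells, and the lineages overlapped. Its log2 difference was 0.30, with an interval of -0.27 to 0.87 and an adjusted p of 0.895 in limma. Within a library the ratio of *Fmod* to *Lum* was 0.0477, 0.111 and 0.0870 in SHF cells and 0.198, 0.226 and 0.281 in CNC cells. This ratio did not overlap between the lineages, and its log2 difference was 1.59. The exact two-sided permutation test gave p = 0.1, again the smallest possible, and 0.4 after adjustment over 4 ratios. The ratio of *Dcn* to *Lum*, from 3.71 to 7.50 over all 6 libraries, overlapped (log2 difference -0.17, exact two-sided permutation p = 0.7, adjusted p = 0.7).

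The remaining class II members were level or variable. Prelp, which joins collagen to heparan sulfate proteoglycans of the basement membrane, read 703 TPM, 1090 TPM and 687 TPM in SHF cells and 711 TPM, 712 TPM and 888 TPM in CNC cells. SHF replicate 2 held the highest value and SHF replicate 3 the lowest, so the CNC values lay inside the SHF range. The log2 difference of *Prelp* was -0.08, with an interval of -0.68 to 0.53. Osteomodulin, a keratan sulfate proteoglycan of mineralised tissue, was the least abundant. *Omd* read 74.0 TPM, 37.3 TPM and 68.8 TPM in SHF and 82.3 TPM, 139 TPM and 38.0 TPM in CNC cells, with the highest and nearly the lowest value both in CNC libraries. Its log2 difference of 0.39 had the widest interval of the 9, from -0.92 to 1.71.

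Osteoglycin, also called mimecan, is a class III member of connective tissue and vessel walls. *Ogn* read 490.3 TPM, 295 TPM and 745 TPM in SHF cells and 967 TPM, 1025 TPM and 1034 TPM in CNC cells. The CNC libraries lay close together and all above the SHF libraries, which were spread widely. The coefficient of variation was 3.62% in CNC and 44.2% in SHF cells. Mean levels were 1008 ± 36.5 TPM in CNC and 510.0 ± 226 TPM in SHF cells (SD, n = 3). The log2 difference was 1.08 ± 0.33 (SE), with an interval of 0.34 to 1.82, an unadjusted p of 0.00797 and an adjusted p of 0.625 in limma. The ratio of *Ogn* to *Omd*, its chromosomal neighbour, was 6.62, 7.92 and 10.8 in SHF and 11.7, 7.37 and 27.2 in CNC cells and overlapped (log2 difference 0.68, exact two-sided permutation p = 0.3, adjusted p = 0.6 over 4 ratios). Without CNC replicate 3 this difference was 0.17, and without CNC replicate 2 it was 1.11.

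Podocan, encoded by *Podn*, is the class V member and is known in arteries as a brake on smooth muscle growth. It read 84.8 TPM, 69.2 TPM and 76.1 TPM in SHF and 98.0 TPM, 98.5 TPM and 135 TPM in CNC cells. The lineages did not overlap, but the nearest libraries of both differed by little. The log2 difference of 0.51 had an interval of -0.43 to 1.45 and an adjusted p of 0.891 in limma, and the exact two-sided permutation p was 0.1. As shares of the summed level of the 9, *Fmod* held 0.488% to 0.862% in SHF cells and 1.58% to 3.09% in CNC cells, and *Ogn* held 1.06% to 2.91% and 3.14% to 3.61%.

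The start regions of the members that did not overlap between the lineages (*Fmod*, *Ogn* and *Podn*) are shown so that the sequence around their transcription starts can be read beside their levels. That of *Prelp* is added because it is the neighbour of *Fmod* on chromosome 1 and overlapped. Each runs from 250 bases before to 50 bases after a transcription start in RefSeq on GRCm38.p6 and is written 5′ to 3′ on the strand of the gene. The table had entries for 7 of the 9 members, not for *Dcn* and *Lum*. Capitals mark matches on either strand to 4 motifs. The TATA box was searched as TATAAA. The motif of AP-1 was searched as TGANTCA. The motif of the SMAD factors was searched as CAGAC, and the GC box of Sp1 as GGGCGG. The matches are matches of letters only, not binding sites. *Fmod* is at chr1:134037004-134037303 on the plus strand, *Ogn* at chr13:49607765-49608064 on the plus strand, *Podn* (the first of its 2 starts in the table) at chr4:108031905-108032204 on the minus strand, and *Prelp* at chr1:133921352-133921651 on the minus strand.
Fmod: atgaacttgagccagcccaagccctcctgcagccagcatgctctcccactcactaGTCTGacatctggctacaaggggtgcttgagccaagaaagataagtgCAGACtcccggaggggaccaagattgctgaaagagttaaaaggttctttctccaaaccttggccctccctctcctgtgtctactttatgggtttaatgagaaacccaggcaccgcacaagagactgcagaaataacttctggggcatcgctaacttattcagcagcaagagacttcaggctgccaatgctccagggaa
Ogn: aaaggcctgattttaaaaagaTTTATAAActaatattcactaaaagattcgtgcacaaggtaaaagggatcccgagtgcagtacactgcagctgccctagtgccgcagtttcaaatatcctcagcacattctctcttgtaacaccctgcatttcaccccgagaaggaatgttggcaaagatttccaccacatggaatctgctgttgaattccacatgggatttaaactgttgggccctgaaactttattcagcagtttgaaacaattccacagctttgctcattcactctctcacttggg
Podn: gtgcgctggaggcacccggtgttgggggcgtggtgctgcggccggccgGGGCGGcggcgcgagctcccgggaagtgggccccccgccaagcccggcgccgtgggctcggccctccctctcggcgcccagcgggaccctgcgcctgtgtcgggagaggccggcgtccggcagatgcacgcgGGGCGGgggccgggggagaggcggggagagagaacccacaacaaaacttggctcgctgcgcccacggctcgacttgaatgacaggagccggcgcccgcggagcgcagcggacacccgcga
Prelp: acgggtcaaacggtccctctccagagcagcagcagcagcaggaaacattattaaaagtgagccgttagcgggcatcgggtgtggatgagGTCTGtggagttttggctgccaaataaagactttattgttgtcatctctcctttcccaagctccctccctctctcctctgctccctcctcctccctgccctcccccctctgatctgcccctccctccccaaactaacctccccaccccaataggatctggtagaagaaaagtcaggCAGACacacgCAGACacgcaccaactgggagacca

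*Fmod* holds CAGAC 195 and 148 bases before the start, and *Prelp* holds it 161 bases before and 16 and 26 bases after it. *Ogn* has TATAAA on both strands in an overlapping stretch that begins 229 bases before the start, and *Podn* has GGGCGG 202 and 70 bases before its first start. G and C make up 51.0% of the *Fmod* stretch, 42.3% of *Ogn*, 77.0% of *Podn* and 55.3% of *Prelp*. Among the 7 members with an entry, CAGAC was found in 3, GGGCGG in 2, TATAAA in 2 and TGANTCA in 0. For *Podn*, CAGAC was found only at its second start, which is not shown. A member was counted if any of its starts held the motif, whereas the shares below count each promoter singly. Of 32851 mouse promoters of the same length, 49.6% hold CAGAC, 35.7% GGGCGG, 13.6% TATAAA and 7.81% TGANTCA.

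Most of the family lies in gene clusters, given here on GRCm38 from GENCODE M21. On chromosome 10, *Dcn* (97479609 to 97518143), *Lum* (97565128 to 97572703), *Kera* and *Epyc* follow each other on the plus strand over 202.8 kb. On chromosome 13, *Ecm2*, *Aspn* (49544443 to 49567565), *Omd* (49582462 to 49592822) and *Ogn* (49608046 to 49624501) lie over 119.7 kb on the plus strand, all inside *Cenpp* on the opposite strand. Exons of *Aspn* overlap exons of *Cenpp*, whose own level was at most 1.38 TPM in any library. On chromosome 1, *Optc*, *Prelp* (133910304 to 133921414, minus strand) and *Fmod* (134037254 to 134048277, plus strand) lie within 151.1 kb. *Bgn* (X, 73483602 to 73495933, plus strand) and *Podn* (chromosome 4, 108014791 to 108096445, minus strand) lie outside these clusters. *Podn* overlaps the coding gene *Scp2*, though not in exons. Its GENCODE interval reaches further upstream than the RefSeq start region shown above.

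In the chromosome 10 cluster *Dcn* and *Lum* overlapped between lineages, and *Epyc*, epiphycan of cartilage, was higher in every SHF library. *Epyc* read 208 TPM, 302 TPM and 179 TPM in SHF and 70.4 TPM, 110.0 TPM and 6.81 TPM in CNC cells, a log2 difference of -2.51 (adjusted p = 0.688, limma). *Kera*, keratocan of the cornea, was listed at 0 in every library but SHF replicate 2. In the chromosome 13 cluster, *Ogn* at one end and *Ecm2* at the other were higher in every CNC library, while *Aspn* and *Omd* between them overlapped. *Ecm2* read 78.4 TPM, 57.1 TPM and 111 TPM in SHF and 173 TPM, 258 TPM and 154 TPM in CNC cells, with a log2 difference of 1.25 and an adjusted p of 0.692 in limma. In the chromosome 1 cluster *Fmod* did not overlap and *Prelp*, 115.8 kb away, did.

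**Figure D4:**
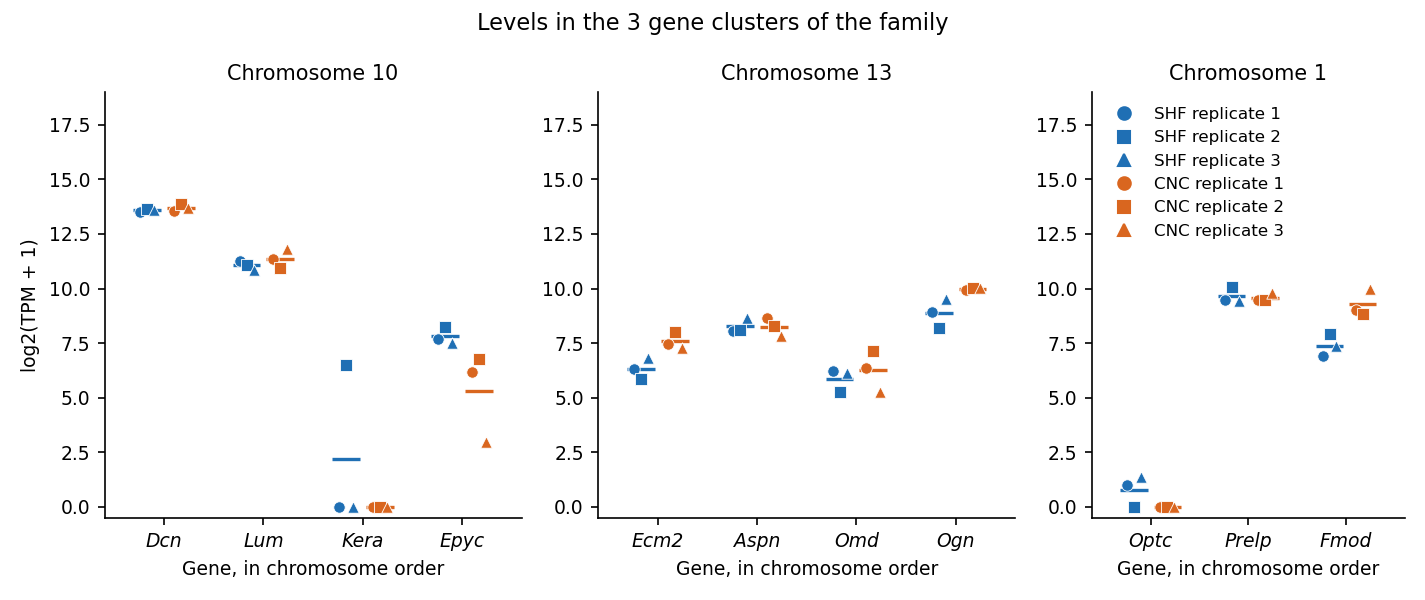
Levels as log2(TPM + 1) of the family genes in 3 clusters, in chromosome order, with SHF libraries in blue, CNC libraries in orange and a line at each lineage mean (n = 3). *Ecm2*, *Ogn* and *Fmod* are higher in all CNC libraries, *Epyc* in all SHF libraries, and *Dcn*, *Lum*, *Aspn*, *Omd* and *Prelp* overlap.

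Of the 9 family genes outside the members, 4 could be tested and 0 passed the adjusted threshold in limma. Of the 4, 2 (*Epyc* and *Ecm2*) had an unadjusted p under 0.05 in limma, against 5.86% of all genes tested. The other two tested, *Chad* (chondroadherin of cartilage) and *Tsku* (tsukushi), overlapped between lineages, with log2 differences of -0.41 and -0.20. For *Tsku* the direction depended on the scale, since its mean was 22.9 ± 17.0 TPM in SHF and 27.9 ± 28.8 TPM in CNC cells (SD, n = 3). *Nyx* and *Podnl1* were listed at 0 in all 6 libraries, and *Optc* reached at most 1.6 TPM.

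The levels of the members varied in different ways from library to library. Over the 36 pairs, Pearson's r of log2(TPM + 1) across the 6 libraries ran from -0.793 for *Prelp* with *Omd* to 0.832 for *Fmod* with *Podn*, with a median of 0.232, and it was above 0 in 21 pairs. *Dcn* and *Bgn*, the most abundant, had an r of -0.051. The points share their library totals and hold both lineages, so these values are descriptive. Outside the family, the genes whose pattern was most like the summed level of the 9, among 7430 genes whose mean was 10 TPM or higher, were *Rpsa* (r = 0.978), *Tmem242* (0.976), *Lgals9* (0.961), *Lcmt1* (0.959) and *Smoc2* (0.955), each over 6 libraries. *Smoc2*, a secreted calcium-binding matrix protein, read 552 TPM, 811.4 TPM and 808 TPM in SHF and 1125 TPM, 873 TPM and 1234 TPM in CNC cells.

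Genes of the collagens that these proteoglycans bind had estimates in the same direction as *Fmod* and *Ogn*. All 10 on the list were tested and had higher estimates in CNC cells, with a median log2 difference of 0.68 beside -0.02 for all genes. None of the 10 passed the adjusted threshold (smallest adjusted p 0.465, limma). At an unadjusted p under 0.05 in limma, 5 passed, against 5.86% of all genes tested. In 5 (*Col1a1*, *Col1a2*, *Col3a1*, *Col5a2* and *Col14a1*) every CNC library was above every SHF library, against 5.68% of all genes. *Col1a1* read 4541 TPM, 4005 TPM and 4396 TPM in SHF and 11792 TPM, 7322 TPM and 12778 TPM in CNC cells. *Col3a1* read 8546 TPM, 6770.3 TPM and 8644 TPM in SHF and 17544 TPM, 9250.1 TPM and 16138 TPM in CNC cells. The lineages did not overlap for either gene, with log2 differences of 1.26 for *Col1a1* and 0.80 for *Col3a1*.

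**Figure D5:**
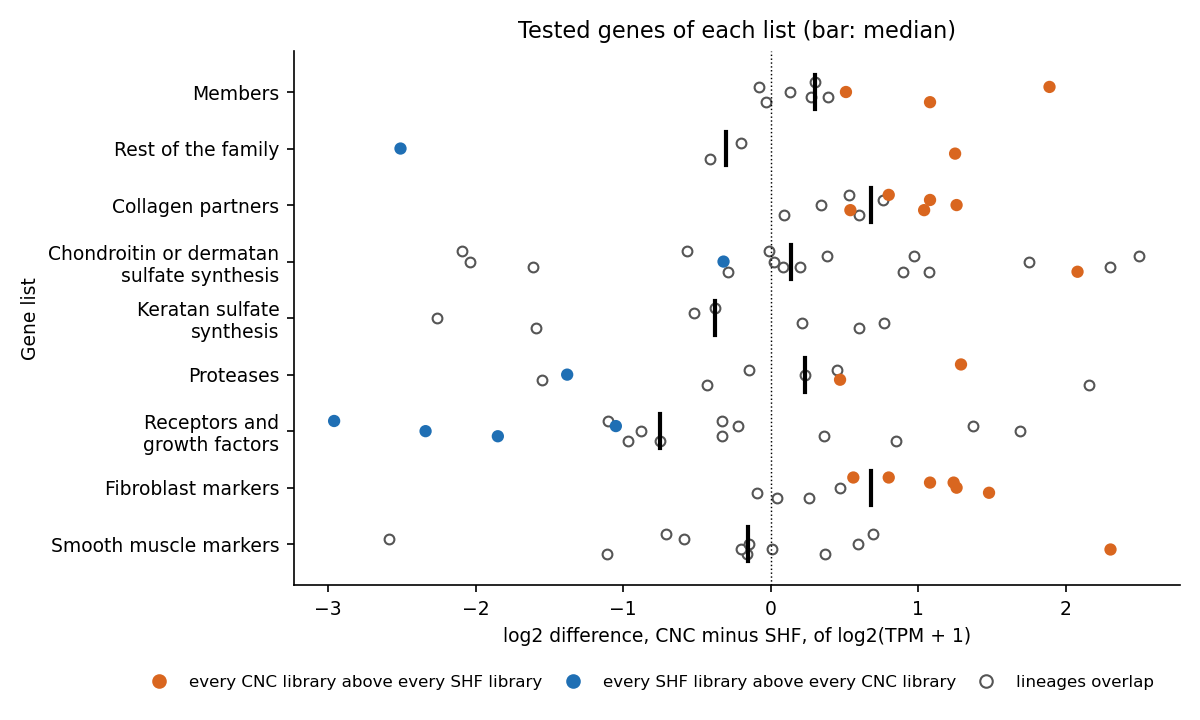
Difference in log2(TPM + 1), CNC minus SHF, for each tested gene of the gene lists, with a bar at the list's median. Filled orange points are genes with every CNC library above every SHF library, filled blue points the reverse, and open points overlap, and the medians are 0.30 for the members and 0.68 for the collagens.

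The enzymes that build the sugar chains had estimates in both directions. For chain linkage and chondroitin or dermatan sulfate synthesis, 18 of 22 genes were tested, 0 passed the adjusted threshold and 0 had an unadjusted p under 0.05 in limma, and the median log2 difference was 0.14. *Chpf*, a chondroitin polymerising factor and the most abundant of them, read 137 TPM, 106 TPM and 172 TPM in SHF and 329 TPM, 109 TPM and 153 TPM in CNC cells and overlapped. *Chst12*, a chondroitin sulfotransferase, was higher in every CNC library, at 112 TPM, 141 TPM and 132 TPM against 73.4 TPM, 2.53 TPM and 107 TPM, with a log2 difference of 2.08 (adjusted p = 0.874, limma). *Dse*, the epimerase that turns chondroitin into dermatan sulfate, was higher in every SHF library, at 74.7 TPM, 80.6 TPM and 85.2 TPM against 58.0 TPM, 62.8 TPM and 71.9 TPM, with a log2 difference of -0.32 (adjusted p = 0.926, limma). For keratan sulfate synthesis, 7 of 12 genes were tested and 0 passed either threshold in limma, with a median of -0.38, and *B3gnt7*, *Chst4* and *Chst5* were listed at 0 in all 6 libraries. *B4galt1*, a galactosyltransferase and the most abundant of that list, ran from 163 TPM to 374 TPM over all libraries and overlapped.

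Of the proteases and helpers that process or degrade the proteoglycans and their collagens, 9 of 15 were tested and 0 passed the adjusted threshold in limma. Of the 9, 2 (*Mmp3* and *Htra1*) had an unadjusted p under 0.05 in limma, against 5.86% of all genes tested. *Htra1*, a serine protease that cleaves decorin and biglycan, read 311 TPM, 490.2 TPM and 334 TPM in SHF and 1173 TPM, 675 TPM and 947 TPM in CNC cells, with a log2 difference of 1.29 and an adjusted p of 0.475 in limma. *Mmp3*, stromelysin, stood the other way, at 116 TPM, 214 TPM and 179 TPM in SHF and 64.7 TPM, 48.9 TPM and 77.2 TPM in CNC cells. *Mmp2*, a gelatinase that also cleaves decorin, was higher in every CNC library, at 1441 TPM to 1698 TPM against 959 TPM to 1379 TPM in SHF cells. *Mmp3* was singled out after its values were seen. *Pcolce*, which speeds the trimming of procollagen, was the most abundant of the list, read 1395 TPM to 2194 TPM in SHF and 1867 TPM to 2452 TPM in CNC cells, and overlapped.

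Among receptors and growth factors bound by these proteoglycans, 15 of 16 with a row were tested and 0 passed the adjusted threshold in limma. Of the 15, 2 (*Wisp1* and *Tlr2*) had an unadjusted p under 0.05 in limma, against 5.86% of all genes tested. The median log2 difference of this list was -0.75. In 4 genes (*Wisp1*, *Igf1r*, *Tlr2* and *Cd44*) every SHF library was above every CNC library, which held for 6.11% of all genes. *Tlr2*, the innate receptor that biglycan activates, read 47.3 TPM, 48.9 TPM and 68.6 TPM in SHF and 29.2 TPM, 5.49 TPM and 5.53 TPM in CNC cells, and was named after its values were seen. *Ctgf*, which binds decorin, was the most abundant of the list, with 1998 TPM in SHF replicate 1 and 376 TPM to 659 TPM in the other 5 libraries. *Tgfb3*, a growth factor held by decorin and biglycan, read 152 TPM to 239.6 TPM in SHF and 200 TPM to 358 TPM in CNC cells and overlapped.

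Marker levels of several cell types are given beside these differences. The summed level of 10 fibroblast markers that are not members was 30886 TPM to 50760 TPM in SHF and 49647 TPM to 58124 TPM in CNC cells. Of the 10, 6 were higher in every CNC library, against 5.68% of all genes, and 3 are also on the collagen list. The summed level of 12 smooth muscle markers was 1547 TPM to 3271 TPM in SHF and 1426 TPM to 2167 TPM in CNC cells, and 10 of the 12 were above 0 in all 6 libraries. The collagens of the fibroblast list are made by smooth muscle cells too. *Acta2*, smooth muscle actin, read 363 TPM to 956 TPM and *Myh11*, smooth muscle myosin, 17.4 TPM to 125 TPM. The defining smooth muscle markers were thus present in both lineages, at lower TPM than *Gsn*, *Col3a1* and *Dcn*. As percentages of the fibroblast marker sum, *Fmod* was 0.337%, 0.778% and 0.320% in SHF and 0.885%, 0.903% and 1.92% in CNC cells, and *Ogn* was 1.41%, 0.955% and 1.47% against 1.66%, 2.06% and 1.95%. On that scale both were higher in every CNC library, *Podn* overlapped and *Aspn* was higher in every SHF library. *Gsn* alone held 26.2% to 61.8% of the sum, and without it, a choice made after seeing the data, *Fmod*, *Ogn*, *Podn* and *Omd* overlapped. *Fmod* was then 0.641%, 1.58% and 0.838% in SHF and 1.32%, 1.82% and 2.60% in CNC cells, and *Ogn* 2.67%, 1.94% and 3.85% against 2.49%, 4.16% and 2.65%. The other 5 members, *Dcn*, *Bgn*, *Lum*, *Prelp* and *Aspn*, were higher in every SHF library relative to the sum without *Gsn*, most of which is collagen RNA. As percentages of the smooth muscle marker sum, *Fmod*, *Ogn* and *Podn* were higher in every CNC library.

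Markers of other cells differed in level from library to library. Endothelial markers summed to 302 TPM to 858 TPM in SHF and 242 TPM to 336 TPM in CNC cells, and *Cdh5*, *Emcn*, *Tie1*, *Vwf* and *Cldn5* were listed at 0 in all CNC libraries. *Eng*, which is not limited to endothelium, held most of the CNC sum at 180.5 TPM to 275 TPM, and *Pecam1* read 9.72 TPM to 37.9 TPM, *Tek* 1.11 TPM to 36.7 TPM and *Kdr* up to 14.4 TPM in CNC cells. Leukocyte markers reached 26.9 TPM in SHF and 129 TPM in CNC cells, with *Ptprc* listed at 0 in all 6 libraries. Cardiomyocyte markers summed to 87.4 TPM to 116 TPM in SHF and 0 TPM to 37.7 TPM in CNC cells, and Schwann cell markers to 1.5 TPM to 15.3 TPM and 21.4 TPM to 94.4 TPM. Chondrocyte markers summed to 642 TPM to 851 TPM in SHF and 908 TPM to 1152 TPM in CNC cells. *Comp*, a cartilage matrix protein, read 308 TPM to 433 TPM in SHF and 696 TPM to 1000.4 TPM in CNC cells. *Cytl1* read 263 TPM to 295 TPM in SHF and 82.1 TPM to 289 TPM in CNC cells and overlapped, and *Sox9* was higher in every SHF library. *Acan* and *Col2a1* reached at most 2.37 TPM and 0.08 TPM. *Xist* was above 0 in SHF replicates 2 and 3 alone and the Y-linked *Ddx3y* in the other 4 libraries, so sex moved in part with lineage. *Bgn*, being X-linked, is given here by sex as well. Both SHF replicates with *Xist* (10948 TPM and 9141 TPM) lay above SHF replicate 1 (8280 TPM), the only SHF library without it. They lay inside the range of the other 4 libraries, but these hold all the CNC libraries, so that range mixes sex with lineage. The part of cell make-up and of sex in the differences of the members was not tested.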

How the data were processed

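RNA of sorted SHF-traced and CNC-traced aortic cells was amplified by SmartSeq2, and the deposited matrix holds TPM values that the authors made, per the labels, with RSEM 1.2.25 and Bowtie2 on mm10. The gene annotation is not given in the sources used here. The study's own 5 TPM filter for lineage-exclusive transcripts was not applied to this matrix, which lists genes at 0 in all 6 libraries. The TPM of each library summed to between 999999 and 1000001, so the depth is unknown and no counting interval can be given. P-values measure the spread between these libraries. Groups came from the lineage labels.

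Levels were taken as log2(TPM + 1), genes reaching 1 TPM in 3 or more libraries were kept, and limma 3.58.1 (R 4.3.3, empirical Bayes with trend) compared CNC with SHF over all of them, calling genes at a Benjamini-Hochberg adjusted p under 0.05. The pseudocount makes fold changes of low genes too small. Exact two-sided permutation tests were made for single members and for 4 ratios (SciPy 1.17.1), and the fit was tested on simulated data. Other pseudocounts, filters, scalings, weights, a replicate block and leaving out each library were tried. All members were named. Of the other lists, the genes with the highest mean TPM or past the threshold were to be named, at most 4 a list, and other genes with an unadjusted p under 0.05 or without overlap were named after their values were seen. The 9 members and all gene lists were chosen with earlier results of these data known. Of the listed genes, 2 (*Ccn2*, *Cnmd*) had no row, and the older symbol *Ctgf* did. Positions came from GENCODE M21 (GRCm38) and promoters from RefSeq (GRCm38.p6).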

Additional observations from a re-analysis of the deposited data

How the results depend on the processing

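The 9 members gave 0 adjusted calls under every alternative. Over all genes limma called 0, and 1 with a pseudocount of 5, and leaving out each library in turn gave 0 each time. Of 135 alternative values for the members' differences, 126 kept their direction and 9 reversed, all close to 0 and none past the threshold. *Aspn* went to 0.05 and *Prelp* to 0.0024 with median-of-ratios scaling, *Dcn* to -0.04 and *Bgn* to -0.07 with quantile scaling, and *Prelp* to 0.07 with library weights. Leaving out a library in turn gave -0.19 to 0.14 for *Prelp* (0.14 without SHF replicate 2), -0.23 to 0.19 for *Aspn* (0.16 without SHF replicate 3, 0.19 without CNC replicate 3) and -0.04 to 0.88 for *Omd* (-0.04 without CNC replicate 2). The ratio of *Dcn* to *Bgn* ran from -0.40 to 0.04 (log2, CNC minus SHF) and that of *Dcn* to *Lum* from -0.46 to 0.05, the highest without CNC replicate 1 and without CNC replicate 3, and that of *Ogn* to *Omd* from 0.17 to 1.11. The cause of these changes was not tested. Leaving out a library gave 0.05 to 0.20 for *Dcn*, 0.16 to 0.45 for *Bgn*, 0.07 (without CNC replicate 3) to 0.51 (without CNC replicate 2) for *Lum* and 0.36 to 0.59 for *Podn*. *Fmod* stayed between 1.53 and 2.22 (adjusted p 0.245 to 0.974, limma) and *Ogn* between 0.74 and 1.40 (adjusted p 0.478 to 0.974, limma). The count of 3 members without overlap, run again by a choice made after seeing the data, stayed at 3 with median-of-ratios scaling and ran from 3 to 5 when a library was left out, which can only raise it, with *Bgn* and *Lum* added without CNC replicate 2. The share of all genes with every CNC library above every SHF library was 6.37% with that scaling and 9.53% to 12.1% when a library was left out (12.1% without SHF replicate 1, with 3 members, and 10.0% without CNC replicate 2). Same-numbered libraries did not deviate together (correlations of -0.011, -0.004 and -0.011), so the numbers were not taken as pairs, and with the replicate block limma called 0 genes and 0 members. Depth is unknown, so levels near 0 cannot be told from failed detection.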
